A study of Mus musculus with 3 samples.

Results

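St3gal4, Lgals4, Muc13, Plac8 and Clec2h are 5 mouse genes that each lay in a run of ESRRA ChIP-seq peaks in duodenal villus cells. ESRRA, the estrogen-related receptor alpha, is an orphan nuclear receptor that binds DNA at an extended half-site and controls genes of energy metabolism. A peak was given to a gene when its midpoint lay inside the gene or within 30 kb of any of its annotated transcript start sites, and 38 of the 1639 peaks, or 2.32%, were given to these 5 genes. The genes were selected on the peak positions themselves: each lay in a run of 5 or more peaks whose neighbouring midpoints were at most 30 kb apart. The number of peaks per gene and their closeness are therefore a description, and no test was made of them.

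The experiment compared ESRRA ChIP (2 libraries) with sheared input chromatin that had not been immunoprecipitated (1 library), to locate the regions bound by ESRRA. All 3 libraries came from villus cells of the duodenal epithelium of adult WT mice, which the study describes as C57BL/6 animals on regular chow, with no mutation or drug in any of them. Villi were freed from the underlying tissue with EDTA and kept back on a filter that crypts pass. The authors called peaks once, on the reads of both ChIP libraries together, so 1 list of positions stood for the experiment, with no height, score or replicate value for any peak.

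St3gal4 encodes a Golgi sialyltransferase that adds sialic acid to terminal galactose of glycans. Lgals4 encodes galectin-4, a lectin that binds galactose-bearing glycans and is abundant at the enterocyte brush border, and Muc13 encodes a transmembrane mucin of the apical surface. Clec2h belongs to a family of C-type lectin-like membrane proteins, whose relatives are ligands of natural killer cell receptors. Plac8 encodes a small cysteine-rich protein that is not known as a glycan or surface gene, so that a role in surface glycans describes at most the other 4 genes. Binding near a gene is not expression of it, and no expression was measured in these files.

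The sequences that bear on ESRRA binding are shown first. The short ESRR half-site AAGGTCA, searched on both strands, was present in 6 of the 38 peaks, or 15.8% (95% Wilson interval, 7.44 to 30.4%), whereas 44.0% of all peaks held it. The 6 peaks held 8 copies, of which 6, 1 from each peak, are given here with 12 bases on either side. Each is written 5′ to 3′ on the strand that carries the half-site, which is in capitals, with mm9 coordinates of the printed bases.
St3gal4 peak 1, intron 1, chr9:34917921-34917951, minus strand: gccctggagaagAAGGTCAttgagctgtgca
St3gal4 peak 7, intron 1, chr9:34876960-34876990, plus strand: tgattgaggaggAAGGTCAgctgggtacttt
Lgals4 peak 5, past the 3′ end, chr7:29627403-29627433, minus strand: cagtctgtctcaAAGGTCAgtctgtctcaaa
Plac8 peak 2, intron 1, chr5:100995953-100995983, plus strand: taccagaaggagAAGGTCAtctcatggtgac
Plac8 peak 8, past the 3′ end, chr5:100973947-100973977, plus strand: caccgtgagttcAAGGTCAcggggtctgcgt
Clec2h peak 5, past the 3′ end, chr6:128631819-128631849, minus strand: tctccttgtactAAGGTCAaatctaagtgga

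Peaks are numbered from the 5′ end of each gene. Among these, only the copy shown from Plac8 peak 8 was preceded by the bases that complete the extended form TCAAGGTCA. That copy lay 262 bp from the midpoint, the farthest of the 8 copies. No Muc13 peak held the half-site, nor its shorter core AGGTCA. The centre of the Muc13 peak just past the gene's 3′ end is shown as an example of a peak without it. Its capitals mark AGATAA, a sequence bound by GATA factors, which lay 1 bp from the midpoint of that peak. In the other genes, the nearest AGATAA to a midpoint with no exon sequence around it lay 75 to 106 bp away. The printed bases also hold TCAAGGCCA near their end, with 1 difference from TCAAGGTCA. A closest match with 1 difference was as common in windows of the same width 2 kb from all peaks (18.7%) as in the 38 peaks (18.4%). Whether this part of the peak is repeated sequence was not examined separately.
Muc13 peak 5, past the 3′ end, up to 100 bp on either side of the midpoint, chr16:33821848-33822048, plus strand: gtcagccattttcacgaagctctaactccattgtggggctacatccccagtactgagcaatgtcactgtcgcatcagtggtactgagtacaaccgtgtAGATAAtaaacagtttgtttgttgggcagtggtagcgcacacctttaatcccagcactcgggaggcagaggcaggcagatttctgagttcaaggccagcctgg

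The 5 genes differed in size, and their peaks shared 1 arrangement: all 38 lay inside the gene or past its 3′ end. No peak lay upstream of the 5′-most start site of its gene. For this, 3 counts of 38, the limit that a count of 0 allows, come to 7.89%, and the upper end of the Wilson interval is 9.18%. Both limits take the 38 peaks as independent, which neighbouring peaks are not. Inside the gene lay 29 peaks, or 76.3% (60.8 to 87.0%), and past its end lay 9, or 23.7% (13.0 to 39.2%). Of all 1639 peaks, 58.9% had a midpoint inside some annotated gene, a looser measure than inside the gene the peak was given to. In St3gal4, which is 70.2 kb long, the 30 kb limit left no room for peaks past the end. Without St3gal4, a choice made after the values were seen, 15 of 24 peaks (62.5%) lay inside. Over all 3030 pairs of a protein-coding gene and a peak given to it, the peak was upstream in 37.5%, inside in 31.3% and downstream in 31.2%. Of the 37 other protein-coding genes with 5 or more peaks, 13, or 35.1%, also had none upstream, and 5 of these had peaks both inside the gene and past its end. The 37 included Ech1, Hnrnpl, Lgals7 and Clec2j, which shared peaks with Lgals4 or Clec2h. They also included 7 genes with 21 peaks each. At 5 of those, 20 of the 21 peaks lay in sequence with more than 10 copies in the genome. Slc5a1, Mgam and Sis, with 12, 9 and 8 peaks, had all of them inside the gene. Because a gene can share its peaks with its neighbours, these pairs were not independent, and no test was made. With a limit of 100 kb in place of 30 kb, the 5 genes held 42 peaks, again with 0 upstream.

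**Figure D1:**
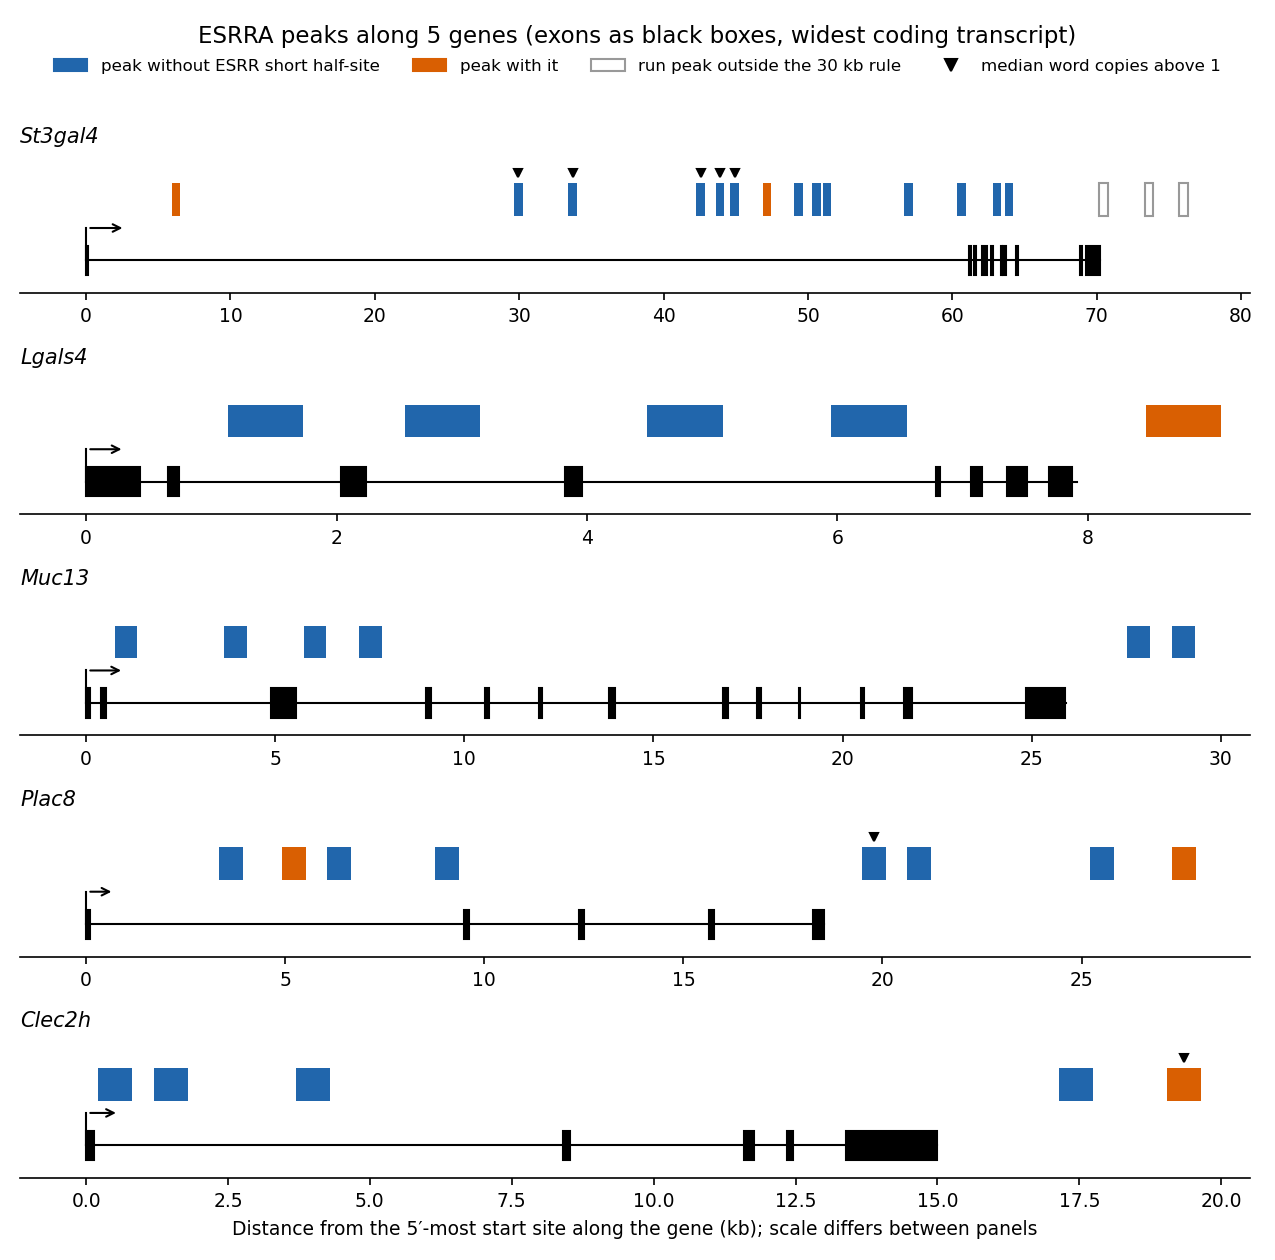
ESRRA peaks along St3gal4, Lgals4, Muc13, Plac8 and Clec2h, plotted as distance in kb from the 5′-most start site in the direction of transcription, with a separate scale for each gene. Filled boxes are the 38 peaks given to the genes, orange where the short ESRR half-site AAGGTCA was present (6 peaks), open boxes are the 3 peaks of the St3gal4 run that the 30 kb limit left out, triangles mark peaks whose 24-base words occurred more than once in the genome, and black boxes are exons; no peak lies left of the first start site.

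**Figure D2:**
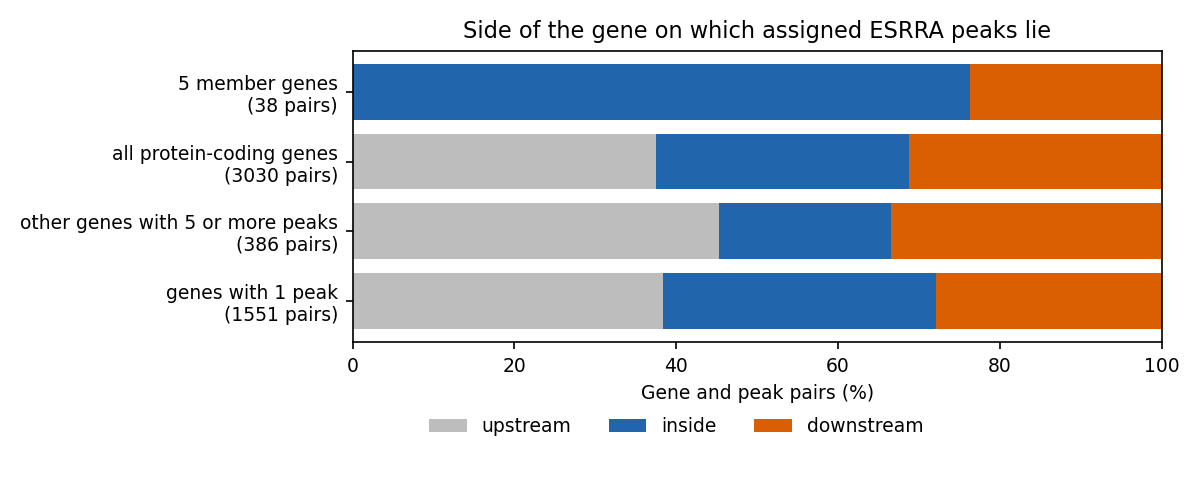
Share in percent of gene and peak pairs with the peak upstream of the gene, inside it or downstream of it, for the 5 genes, all protein-coding genes with a peak, the 37 other genes with 5 or more peaks, and genes with 1 peak. The bar of the 5 genes has no upstream portion, whereas upstream pairs make up 37.5% of all pairs. The 37 other genes include 7 with 21 peaks each, which weigh heavily in their bar.

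The number of peaks set these genes apart by construction. Among 22367 annotated protein-coding genes, 9.07% had at least 1 peak by the same rule and 0.188%, or 42 genes, had 5 or more. The list held 22 runs of 5 or more peaks. Lgals4 and Clec2h stood at the limit with runs of exactly 5 peaks, spanning 7.93 kb and 19.4 kb, as did Krt20 and Abcc2. Just outside it were 20 runs of 4 peaks, such as those at Lct, the gene of lactase, which spanned 13.5 kb, and at Fabp1, the gene of liver fatty acid-binding protein, which spanned 6.67 kb.

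St3gal4 had the most peaks of the 5 genes. It spans 70.2 kb on the minus strand (chr9:34854164-34924395) with 1 annotated transcript of 11 exons. All its 14 peaks were inside the gene, from 6.22 kb to 63.9 kb past the start site, and 12 of them were in intron 1, which is 61.0 kb long. The other two were in intron 6 and intron 8, at 63.1 kb and 63.9 kb. The first peak stood apart from the rest, 23.7 kb before the second, and the closest neighbours, peaks 9 and 10, were 725 bp apart. The run went on past the 3′ end with 3 more peaks, at 0.233, 3.39 and 5.79 kb, which were too far from the start site to be counted under the rule. None of these 3 held AAGGTCA. The start of the divergent lincRNA 4930581F22Rik lay 43 bp from that of St3gal4 and was the nearest start site of 12 of the 14 peaks. For these 12, a link to either transcript cannot be told apart by distance. For peaks 13 and 14 the nearest start site was that of Kirrel3. By the 30 kb rule the lincRNA shared 2 of the 14 peaks.

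Part of intron 1 of St3gal4 was made of repeated sequence, and 5 of the 14 peaks lay in it. Over 20.0 kb (chr9:34879164-34899169), from 25.2 kb to 45.2 kb past the start site, 83.7% of 24-base words occurred 5 or more times in the gene, and their commonest spacing was 1236 bp. Peaks 2 to 6 lay in this stretch and the other 9 peaks outside it. Peaks 3 and 6 shared 545 of their 578 distinct words (94.3%) although their midpoints were 11226 bp apart, and peaks 2 and 3 shared 524 (90.7%). Peak 5 was the least like the rest, with 28 to 66 words in common with each of them. No other pair of St3gal4 peaks shared a word.

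A stretch of 350 bp was identical in peaks 2, 3, 4 and 6. The 81 bases with the most varied sequence in it are given to show how alike the peaks are, on the minus strand, which is the strand of the gene. The capitals mark TGAGTCA, a match to the AP-1 sequence TGANTCA.
St3gal4 common stretch, chr9:34894173-34894253 in peak 2: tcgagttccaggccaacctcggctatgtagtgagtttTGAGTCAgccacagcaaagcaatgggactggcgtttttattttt
These bases occurred 5 times in the gene. The copies at 30.2, 33.9, 42.6 and 45.1 kb past the start site lay under a peak, and the copy at 37.7 kb did not. A read that falls wholly inside such a stretch matches several places, and how the aligned reads of these peaks were placed among the copies is not known from the list. The 5 peaks in the repeated stretch held no AAGGTCA.

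**Figure D3:**
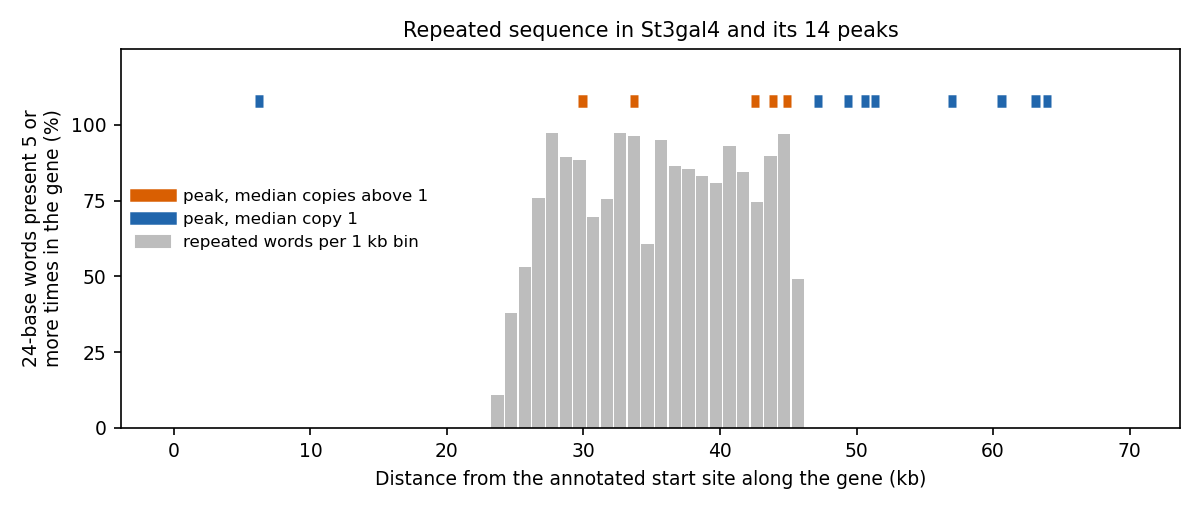
Share in percent of 24-base words that occur 5 or more times in St3gal4, in bins of 1 kb along the distance from the start site, with the 14 peaks drawn as short bars above. The 5 orange bars, peaks whose words have a median of more than 1 copy in the genome, lie in the repeated stretch from 25.2 to 45.2 kb, and the 9 blue bars lie outside it.

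The same counts were made over the whole list. Of all peaks, 4.51% had words with a median of 5 or more copies within 100 kb on either side, and the 5 peaks of the repeated stretch were the only ones among the 38. Peaks with a median above 10 copies in the whole genome made up 19.8% of the list and 2 of the 38, or 5.26%. These were St3gal4 peak 5, with 11 copies, and Clec2h peak 5, with 11868.5 copies.

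Lgals4 had the densest run. The gene spans 7.91 kb (chr7:29618813-29626722, plus strand), and its 5 peaks followed each other at distances of 1.41 to 2.51 kb. Peak 1 was in intron 2 at 1.43 kb, peak 2 in intron 3 at 2.85 kb, and peaks 3 and 4 in intron 4 at 4.78 kb and 6.25 kb. Peak 5 lay 0.857 kb past the 3′ end. The 4 peaks inside covered 30.4% of the gene, the second highest share among the 32 protein-coding genes with 3 or more peaks inside, after Fabp1 with 34.7%. The median of these 32 genes was 5.79%. For 3 of the peaks (1, 2 and 4), a start site of Lgals4 itself lay within 1 kb of the midpoint. Those start sites belong to shorter transcripts that begin within the gene, which has 7 annotated transcripts. The 5 peaks were also within 30 kb of the starts of Ech1, a peroxisomal fatty acid enzyme, Hnrnpl, a splicing regulator, and Lgals7, another galectin, but none lay inside those genes.

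Muc13, Plac8 and Clec2h had a divided run: a group of peaks in the first introns, a stretch with no peak that held the remaining exons, and a second group past the 3′ end. With neighbours allowed at most 10 kb apart instead of 30 kb, each of these runs parted in 2. In St3gal4 only the first peak parted from the others under that limit, and the Lgals4 run stayed whole.

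Muc13 spans 25.9 kb (chr16:33794123-33820020, plus strand) and had 6 peaks. Peaks 1 and 2 were in intron 2, at 1.05 kb and 3.95 kb, and peaks 3 and 4 in intron 3, at 6.05 kb and 7.52 kb. The next 20.3 kb, with 10 of the 13 exons, held no peak. Peaks 5 and 6 then lay 1.93 kb and 3.12 kb past the 3′ end. Their nearest start site was that of Itgb5, which encodes an integrin beta subunit, and for peaks 2 to 4 it was that of Gm15657, a transcript on the opposite strand. By the 30 kb rule, Gm15657 shared all 6 Muc13 peaks and had 1 of them inside it, and Itgb5 and Gm15658 each shared 4.

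Plac8 spans 18.5 kb on the minus strand (chr5:100982744-101001264) and had 8 peaks. Peaks 1 to 4 were in intron 1, at 3.65, 5.23, 6.35 and 9.06 kb. Peak 4 was 243 bp from the start of a shorter Plac8 transcript, and 544 of its bases were exonic in some annotated transcript. The next 10.7 kb, with the other 4 exons, held no peak. Peaks 5 to 8 lay 1.27, 2.41, 6.99 and 9.04 kb past the 3′ end, and peaks 7 and 8 were inside the neighbouring gene Cops4, which encodes a subunit of the COP9 signalosome and shared 4 of the 8 peaks. A U1 snRNA gene shared 2. Peak 5 had words with a median of 3 copies.

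Clec2h spans 14986 bp (chr6:128612404-128627389, plus strand) and had 5 peaks, with the peak nearest to a first start site of the 5 genes. Peaks 1 to 3 were in intron 1, at 0.501, 1.5 and 4.0 kb. The next 13.4 kb, with the other 4 exons, held no peak. Peaks 4 and 5 lay 2.46 kb and 4.36 kb past the 3′ end. Clec2j, a neighbour of the same family on the opposite strand, was within 30 kb of all 5 peaks and contained none, and Gm5884 shared 3 of them. The only Clec2h peak with AAGGTCA was peak 5, the one whose words had 11868.5 copies in the genome.

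**Figure D4:**
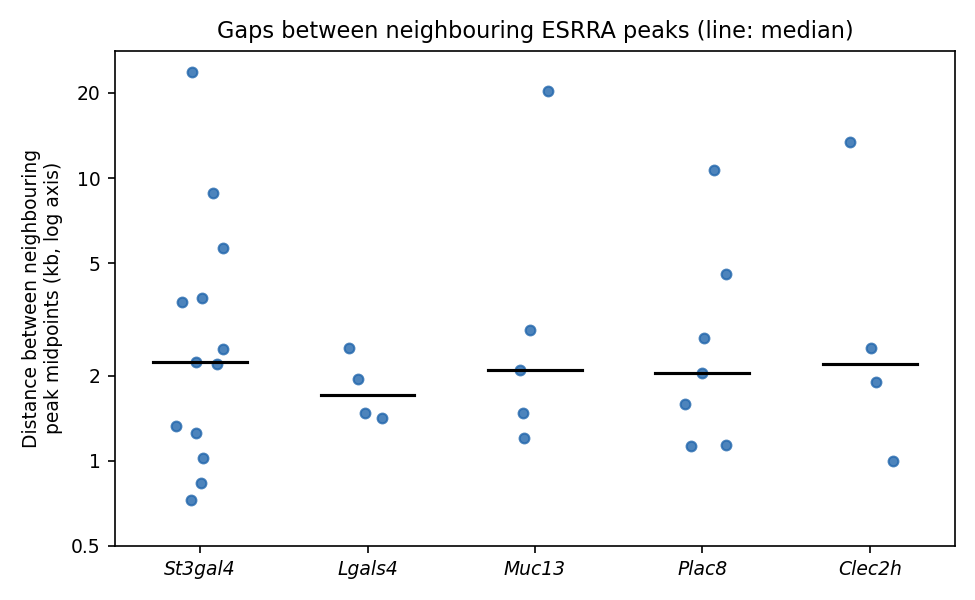
Distance in kb, on a log axis, between the midpoints of neighbouring peaks given to the same gene, with 1 point per pair of neighbours and a line at the median of each gene. Medians lie between 1.7 kb (Lgals4) and 2.23 kb (St3gal4), and St3gal4, Muc13, Plac8 and Clec2h each have 1 gap of more than 10 kb, from 10.7 to 23.7 kb.

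Across the 5 genes the 33 distances between neighbours ran from 725 bp to 23.7 kb with a median of 2.1 kb, and 24 of them were under 3 kb. All 29 peaks inside a gene had their midpoint in an intron of its widest coding transcript. Of the 38 peaks, 33 touched no exon. Within 1 kb of a start site of any gene were 6 of the 38 peaks, or 15.8% (7.44 to 30.4%), compared with 29.8% of all peaks. Of these 6, Lgals4 held 3 and Muc13, Plac8 and Clec2h held 1 each. St3gal4 held none. Counting only start sites of protein-coding transcripts, 3 of the 38 peaks (7.89%) were within 1 kb.

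The half-sites that were present were not gathered at the middle of the peaks. The 8 copies of AAGGTCA, 3 of them in Plac8 peak 8, were 68 to 262 bp from the midpoint, with a median of 155 bp. Distances for sites placed at random in the peaks were not computed, so no preferred position is shown. None was within 50 bp, whereas among 996 copies in all peaks of at most 10 genome copies 35.8% were within 50 bp. Within 100 bp were 2 of the 8, in Plac8 peak 2 and Clec2h peak 5, compared with 59.0% of the 996. The share of the 38 peaks with AAGGTCA, 15.8%, was below that of peaks in other runs of 5 or more (30.5% of 105 peaks) and of peaks in no run (60.8% of 780 peaks), both counted without peaks above 10 copies. In windows of the same width 2 kb to either side of the 38 peaks it was 7.41% of 54, and in such windows around all peaks 12.1% of 3107. The lower end of the interval for the 38 peaks, 7.44%, was close to the first of these shares and below the second. The interval takes the peaks as independent, which neighbouring peaks are not, so it is if anything too narrow. An excess over neighbouring sequence was not shown with 38 peaks.

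For stricter and looser forms, the share was also below that of all peaks. TCAAGGTCA was present in 1 of the 38 peaks (2.63%), in 14.3% of all peaks and in 1.64% of windows around all peaks. AGGTCA, which AAGGTCA contains, was present in 12 (31.6%), compared with 61.4% and 32.3%. St3gal4 held 5 of these 12 peaks and Lgals4 held 4. Sequences with exactly 1 difference from TCAAGGTCA were the closest match in 7 of the 38 peaks (18.4%), compared with 32.0% of all peaks and 18.7% of windows around all peaks. Within the bounds of the 5 runs, AAGGTCA occurred 8 times in 24.6 kb of peak sequence, or 3.25 per 10 kb, and 16 times in the 126 kb between the peaks, or 1.27 per 10 kb. Plac8 was the gene with the highest density in peaks, 8.32 per 10 kb, owing to the 3 copies in peak 8. These 3 are also among the 8 of the pooled figure. The other genes held 0 to 2 copies in peaks each. Their densities in and between peaks were 1.96 and 1.33 in St3gal4 and 3.33 and 2.03 in Lgals4. They were 3.33 and 1.22 in Clec2h, whereas in Muc13 they were 0.0 and 0.801.

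**Figure D5:**
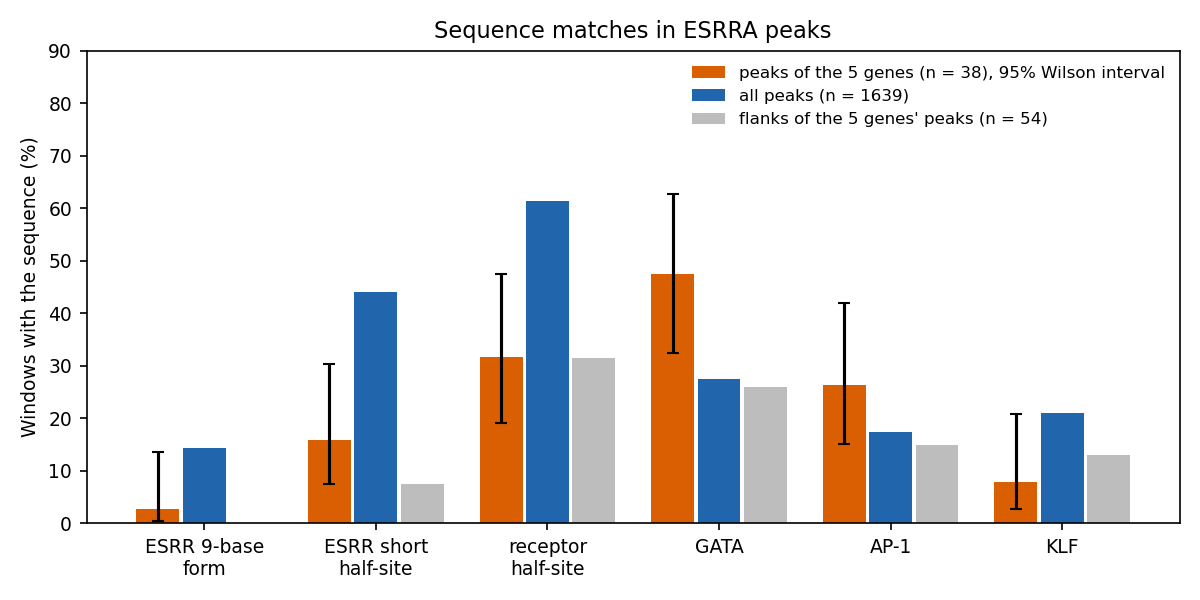
Share in percent of windows that hold each sequence on either strand, for the extended and the short ESRR half-site, the core shared by nuclear receptors, and the GATA, AP-1 and KLF sequences spelled out in the text. Orange bars are the 38 peaks with 95% Wilson intervals, blue bars all 1639 peaks and grey bars the 54 windows 2 kb from the 38 peaks; for the ESRR forms the orange bars are lower than the blue, and for GATA the orange bar, 47.4%, is higher.

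Sequences of other intestinal factors were searched for in the same way. AGATAA, bound by GATA factors, was present in 18 of the 38 peaks, or 47.4% (32.5 to 62.7%), compared with 27.5% of all peaks and 25.9% of the 54 windows nearby. It was found in peaks of each of the 5 genes, namely 6 of St3gal4, 4 of Plac8, 3 each of Muc13 and Clec2h and 2 of Lgals4. The peaks of these genes were poorer in GC, with a median of 43.1% (32.1 to 53.1%), than all peaks, with 48.8%, while the windows nearby had 43.8%. Among all peaks of 40 to 46% GC, a range set after the values were seen, 35.5% held AGATAA. Whether base composition bears on the share in the 38 peaks was not tested. Within 100 bp of the midpoint it was present in 5 of the 38 peaks (13.2%), in 9.21% of all peaks and in 11.1% of the 54 windows nearby.

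TGANTCA, the AP-1 sequence, was present in 10 of the 38 peaks (26.3%) and in 17.4% of all peaks. All 5 peaks of the repeated stretch of St3gal4 held it. In the other 33 peaks it was present in 5, or 15.2%. CAAAGTCCA, a form bound by HNF4, was present in 2 peaks (5.26%), both in the repeated stretch, compared with 2.56% of all peaks and 5.56% of the 54 windows nearby. TTTATTG, bound by CDX factors, was present in 8 peaks (21.1%, compared with 12.3%), and GGGNGTGG, bound by KLF factors, in 3 (7.89%, compared with 20.9%). TTTATGG, another CDX sequence, was present in 1 (2.63%, compared with 6.59%). The HNF1 motif, a direct repeat of AGGTCA and the reversed control ACTGGAACT were present in none of the 38 (Wilson upper limit 9.18%), and they were rare in the whole list, with 0.061%, 0.366% and 0.427% of all peaks.

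Relatives of these genes were looked up with lists of mucins, galectins, sialyltransferases, fucosyltransferases, enzymes of mucin-type O-glycan synthesis, the Clec2 family and the Plac8 family. Of 71 annotated genes on these lists other than the 5, 9 had a peak, or 12.7%, beside 9.07% of all protein-coding genes. Muc3, a transmembrane mucin, had 4 peaks, Clec2e had 3 and Lgals2 had 2. St3gal2, B3gnt3, B4galnt2 and Clec2d had 1 each. Lgals7 and Clec2j had 5 each, which were the same peaks as those of Lgals4 and Clec2h. None of the 9 fucosyltransferases had a peak, and neither did the 2 other members of the Plac8 family. Markers of cell types were also looked up, from lists chosen with earlier results of these data known. A peak was given to 10 of 10 enterocyte marker genes. Of the markers of goblet, Paneth, stem, immune and mesenchymal cells, 0 of 17 had one. Beside the 9.07% of all protein-coding genes, 0 of 17 is near the share of genes at large and says little about these cells. Peaks near a marker describe occupancy and do not count cells.

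By number of peaks under the same rule, 7 genes had the most peaks, 21 each. The 5 of these taken by the rule for ties (share of peaks inside the gene, then symbol) were Gm10721, Gm10716, Gm10717, Gm10718 and Gm10719, and 20 of the 21 peaks of each were above 10 copies in the genome. Leaving out such peaks, a choice made after the values were seen, Slc5a1, the intestinal glucose transporter, was next to St3gal4 with 12 peaks, all inside the gene. In St3gal4 this left in peaks 2, 3, 4 and 6 of the repeated stretch, with a median of 6 copies. Outside that stretch St3gal4 had 9 peaks, fewer than Slc5a1. Mgam, the gene of maltase-glucoamylase, had 9, and Sis, the gene of sucrase-isomaltase, had 8, also all inside. Atp1b1, a subunit of the sodium pump, had 8 with 6 inside, and Rbp2, an enterocyte retinol-binding protein, had 8 with 5 inside. AAGGTCA was present in 1 of the 12 peaks of Slc5a1, 1 of the 8 of Sis, 3 of the 9 of Mgam, 3 of the 8 of Rbp2 and 5 of the 8 of Atp1b1. In St3gal4 it was present in 2 of all 14 peaks, with none left out.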

How the data were processed

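The series held 2 ESRRA ChIP-seq libraries and 1 input library of duodenal villus chromatin. As described in the study's methods and the submitters' processing notes, the authors aligned reads to mm9 with bowtie2 (2.2.6), merged the replicates with SAMtools (0.1.19) and called peaks with MACS2 at a p-value of 1e-05. How the peaks came to share 1 width is not given in the sources used here. The deposited values were positions alone, in 3 columns (chromosome, start, end), so the list gives no read count for any library or peak and replicates could not be compared.

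Peaks were placed on NCBI build 37 (mm9) with GENCODE M1, counted from 1. A run joined midpoints at most 30 kb apart. For each peak, the genome copies of its 24-base words were counted, and a median above 10 was taken as multi-copy. A total of 13 motifs were matched exactly on both strands. Overlapping forms were counted separately. Wilson 95% intervals cover counting error between peaks only, not between animals. No test was run, since 1 pooled list has no replicates and neighbouring peaks are not independent. The functions were tested on simulated data. Computations used Python 3.11.15, numpy 2.4.6, pandas 2.3.3 and pysam 0.24.0.

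The genes and lists were chosen with earlier results of these data known. Genes named were the 5 genes, those sharing their peaks or holding the nearest start site, the 5 other genes with the most peaks, and listed genes with a peak. The threshold runs, enterocyte genes with many single-copy peaks and genes by share covered were named after their values were seen. Alternatives to distances, start sites, motif forms and copy filters were computed.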

Additional observations from a re-analysis of the deposited data

How the results depend on the processing

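The 38 peaks of the 5 genes became 25 regions on joining peaks with under 1 kb between them, and 24 peaks when St3gal4 was left out, an alternative chosen after seeing the data. The share within 1 kb of a start site, 15.8%, was 2.63% within 500 bp, 42.1% within 5 kb and 7.89% with start sites of protein-coding transcripts alone. The share inside the gene, 76.3%, was 96.7% with a limit of 10 kb in place of 30 kb, which drops peaks past the gene's end. The share with AAGGTCA, 15.8%, was 2.63% for TCAAGGTCA, 2.63% for TNAAGGTCA, 31.6% for AGGTCA and 5.26% for AAGGTCA within 100 bp of the midpoint, where all peaks had 29.3%. The absence of upstream peaks held at 10 kb and 100 kb, also chosen after seeing the data, and without the repeated stretch of St3gal4 the share with AAGGTCA was 18.2%.

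No paired analysis was possible because the authors called 1 list on both ChIP libraries together. For the same reason, leaving out either ChIP replicate was not run, and neither was a stricter peak threshold, since no peak has a score. A peak that barely passed counts like a strong one, and whether each peak is present in both libraries is unknown. How reads in the repeated stretch were placed was not tested.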
